A study of Homo sapiens with 6 samples.

Results

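This report describes 9 human genes of blood coagulation and fibrinolysis in NB4 cells: F3, THBD, PLAU, PLAUR, PLAT, SERPINB2, ANXA2, TFPI and F13A1. They were read through all probe sets that the platform annotation assigns to 1 of these genes alone, which gave 20 probe sets for 8 of the genes, out of 54675 probe sets and 19775 named genes in all. SERPINB2, an inhibitor of plasminogen activators, had no such probe set and was not analysed here. The NB4 line comes from a human acute promyelocytic leukaemia with the PML-RARA fusion gene. All-trans retinoic acid (ATRA), a ligand of retinoic acid receptors, makes such cells mature toward neutrophils. All samples were NB4 cultures in RPMI medium: 1 was untreated (0 h), and the others were harvested after 4, 12, 24, 48 and 72 h in 1e-06 M ATRA. Each time has 1 Affymetrix array, 6 arrays in all, so no value below has a replicate or an error of its own, the number of arrays limits the precision, and hours of ATRA cannot be told apart from hours of culture. NB4 is 1 cell line, and no other line or patient cells enter the comparison.

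Clotting starts when tissue factor, the product of F3, binds factor VII and sets off thrombin formation, and factor XIII cross-links the resulting fibrin. Thrombomodulin (THBD) and tissue factor pathway inhibitor (TFPI) restrain thrombin and the tissue factor complex. Fibrin is dissolved by plasmin, which the activators urokinase (PLAU) and tissue plasminogen activator (PLAT) cut from plasminogen. The urokinase receptor (PLAUR) and annexin A2 (ANXA2), which forms a complex with S100A10, gather these reactions on the cell surface. Promyelocytic leukaemia is known for a severe bleeding disorder in which tissue factor and annexin A2 on the leukaemic cells have been implicated, and ATRA is known to correct it in patients.

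F3, ANXA2 and PLAUR are the members whose signal differed most from untreated cells, and their upstream sequences are shown for that reason. The sequences are from RefSeq on GRCh38.p14, 250 bases directly before each gene's start, 5′ to 3′ on the gene's own strand. Upstream windows of 7 of the 9 genes were searched. THBD and PLAT were not searched, and the search of member genes left out the chromosome that carries PLAT. Capitals mark TGANTCA, the letters bound by AP-1, which read the same on both strands.
F3 (chr1:94541760-94542009, minus strand): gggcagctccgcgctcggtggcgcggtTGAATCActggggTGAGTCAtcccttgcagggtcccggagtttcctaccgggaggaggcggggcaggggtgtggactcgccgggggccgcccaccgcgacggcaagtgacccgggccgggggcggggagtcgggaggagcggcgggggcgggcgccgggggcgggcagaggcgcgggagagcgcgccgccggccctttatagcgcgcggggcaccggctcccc
ANXA2 (chr15:60397987-60398236, minus strand): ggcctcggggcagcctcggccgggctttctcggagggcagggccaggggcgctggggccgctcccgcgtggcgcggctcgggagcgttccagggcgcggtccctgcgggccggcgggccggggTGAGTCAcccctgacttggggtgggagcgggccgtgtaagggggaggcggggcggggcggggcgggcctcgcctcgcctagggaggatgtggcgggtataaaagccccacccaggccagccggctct
PLAUR (chr19:43670170-43670419, minus strand): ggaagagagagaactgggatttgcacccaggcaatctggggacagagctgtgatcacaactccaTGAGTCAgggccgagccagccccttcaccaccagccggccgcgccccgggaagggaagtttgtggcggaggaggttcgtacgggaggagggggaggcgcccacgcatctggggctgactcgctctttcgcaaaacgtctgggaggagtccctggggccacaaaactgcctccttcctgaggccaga
F3 had 2 matches, TGAATCA from 223 bases before the start and TGAGTCA from 210 bases before it. ANXA2 had TGAGTCA from 127 bases and PLAUR TGAGTCA from 186 bases before the start. Of all 35116 upstream windows of this length, 6.57% hold at least 1 match. The GC box GGGCGG, searched on both strands, was found 4 times in the F3 window, 3 times in that of ANXA2 and not in that of PLAUR, and 42.6% of all windows hold it. The half-site AGGTCA of nuclear receptors, held by 12.1% of windows, was in none of these 3 windows. The TATA box TATAAA, held by 10.7% of windows, was found on either strand for F3 and ANXA2 and not for PLAUR. Of the other genes searched, SERPINB2 held TGANTCA, and TFPI, F13A1 and PLAU did not. A match is a description of letters, and nothing was measured here about binding.

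The deposited values are log2 signals summarised by RMA, which makes the arrays' distributions alike, and array medians lay between 3.64 and 3.69. The median of all values, 3.66, was used as the filter level: a probe set whose highest value lay below it was set aside as near background. As a measure of what absent transcripts give, 22 probe sets of 15 genes of distant tissues (such as insulin, rhodopsin and a casein among the 18 listed) were read, and percentile 95 of their values was 4.92. Their range over the 6 arrays had a median of 0.47 and reached 0.96 at most. MPO, the promyelocyte enzyme, gave 12.76 to 12.90 in untreated cells, while CDH5, TEK, KDR, VWF, EMCN and ESAM, markers of endothelium, stayed at or below 4.00. The spiked control bioC averaged 8.01 on the untreated and 8.11 on the 12 h array, but 6.88 to 7.17 on the 4, 24, 48 and 72 h arrays, and its part in the results was not tested beyond the values given below. Rescaling on the median of all spiked controls moves every ATRA value relative to untreated. The shifts at 4, 12, 24, 48 and 72 h are 0.71, -0.15, 0.83, 1.0 and 0.66. Rescaling on the mean of the controls other than bioC gives shifts of -0.41, -0.08, -0.48, -0.36 and -0.56. The rescalings thus differ in the statistic used as well as in bioC.

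Of the 20 probe sets, 13 reached the filter level on at least 1 array and 7 did not. The 7 near background were the PLAT and F13A1 probe sets, 4 of the 5 for TFPI and 1 of the 4 for ANXA2. Their values lay between 1.79 and 3.37 and moved by 0.27 to 0.74 over the arrays. The 3 THBD probe sets and the remaining TFPI probe set passed the filter but never reached the 4.92 level of distant-tissue genes. Signal above that level on every array was seen for F3, both PLAU probe sets, 2 of 3 for PLAUR and 1 of 4 for ANXA2.

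**Figure D1:**
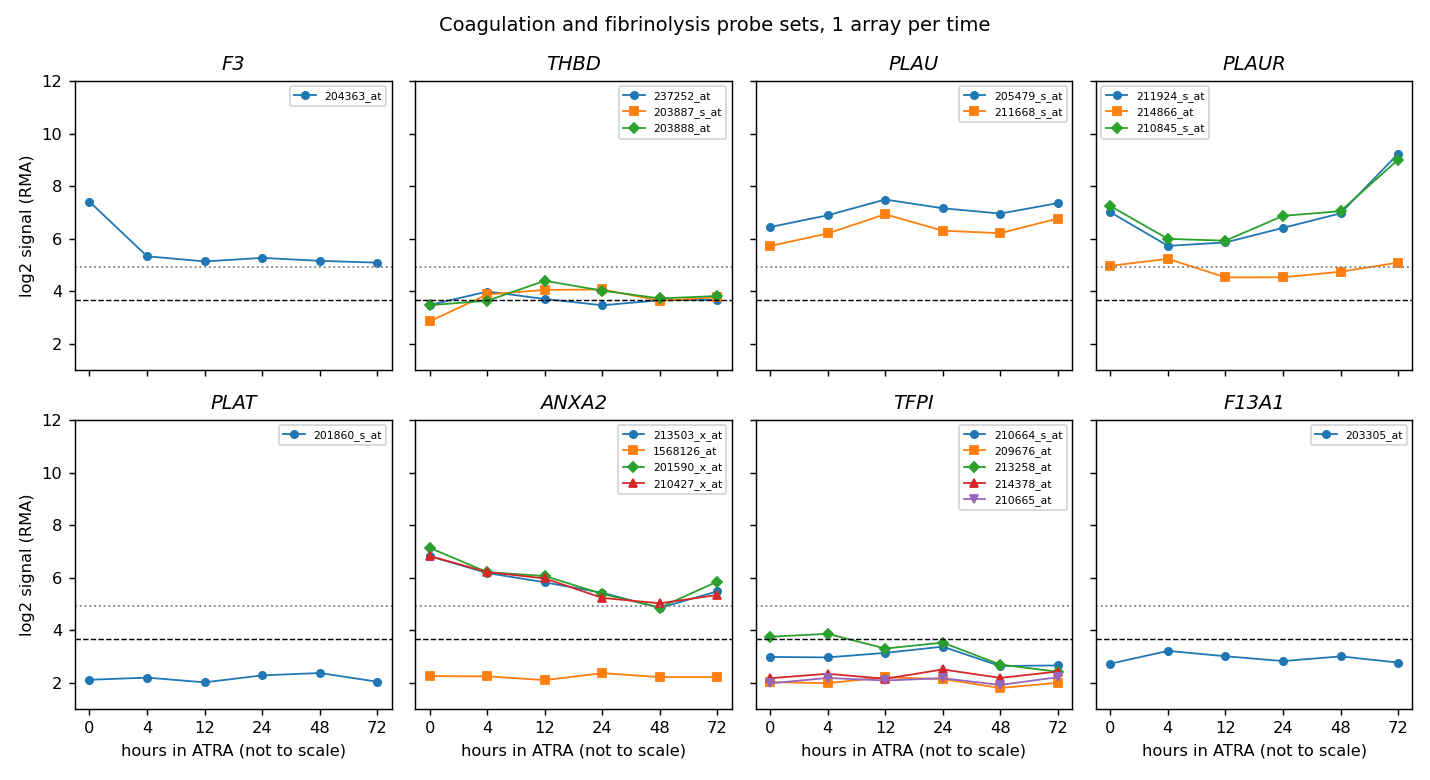
Log2 signal (y axis) of each of the 20 probe sets on the 6 arrays in time order (x axis, hours in ATRA, evenly spaced). Points are single arrays, the dashed line is the filter level of 3.66 and the dotted line the 4.92 level of distant-tissue genes. F3 drops between 0 and 4 h, PLAUR is lowest at 4 and 12 h and highest at 72 h in 2 probe sets, and ANXA2 is lowest at 48 h in 3 of its 4 probe sets.

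Tissue factor was the member with the largest early difference. The F3 probe set 204363_at gave 7.40, 5.33, 5.13, 5.26, 5.15 and 5.08 at 0, 4, 12, 24, 48 and 72 h. All 5 ATRA arrays lay far below the untreated array, and they differed among themselves by 0.24 in all, within the range over arrays that distant-tissue probe sets showed. F3 was 4.22-fold lower than in untreated cells at 4 h and 4.85-, 4.41-, 4.77- and 5.00-fold lower at 12, 24, 48 and 72 h. The 5 differences, here and for the other members, share the same single untreated array and are not 5 independent readings. The ATRA levels were only slightly above 4.92, so how much F3 signal remained is poorly resolved. In bulk RNA, fewer cells with a transcript and less of it per cell cannot be told apart, here and for the other members.

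Few probe sets differed as much as F3 did so soon. Of the 30733 probe sets that passed the filter, 0.221% were as low or lower relative to untreated at 4 h, and 0.973% at 72 h. A difference of 2-fold or more at all 5 ATRA times in the downward direction was seen in 0.498% of them, F3 included. That share also rests on the single untreated array. On the 12 h array, whose bioC level was that of the untreated array, the F3 difference was -2.28. Rescaling on all spiked controls left differences of -1.25 to -2.42 and rescaling without bioC -2.36 to -2.89. With 1 array per time no single time can be tested, and the test used is a straight line over time order, which describes such a step poorly. The slope was -0.34 ± 0.13 per step (SE, limma adjusted p = 0.106), and without the untreated array it was -0.05. On log2(hours + 1) the adjusted p was 0.0660, and over 17 alternatives it ranged from 0.0285 to 0.626.

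Thrombomodulin, the anticoagulant cofactor that turns thrombin toward protein C activation, gave low signal throughout. Probe set 203887_s_at gave 2.85, 3.87, 4.04, 4.06, 3.63 and 3.76 at 0, 4, 12, 24, 48 and 72 h. Probe set 203888_at gave 3.46, 3.63, 4.39, 4.01, 3.72 and 3.81 at the same times. Every ATRA value of these 2 probe sets was higher than the untreated one, and they peaked at 24 and 12 h. The third, 237252_at, stayed between 3.46 and 3.98 and was lower at 24 h than untreated. THBD therefore passed the filter only through ATRA arrays, since all 3 untreated values lay below it, and its count of higher values is no support for a change. With values below the filter set to it, the 203887_s_at difference at 24 h was 0.40 in place of 1.21. No THBD slope passed the test (limma adjusted p = 0.423 for 203887_s_at, 0.718 for 203888_at and 0.946 for 237252_at).

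TFPI, the inhibitor of the tissue factor and factor VII complex, was near background. Its only kept probe set, 213258_at, gave 3.74, 3.86, 3.29, 3.52, 2.69 and 2.41 over the 6 times. Only the 0 and 4 h arrays reached the filter, and the 48 and 72 h arrays were the lowest, so the probe set was tested only because of its early values and its call is no support for a change. The slope of -0.28 ± 0.06 per step passed the test (limma adjusted p = 0.0203), and 8.92% of all tested probe sets were called falling. It did not pass without the 48 h array (limma adjusted p = 0.0531), without the 72 h array (0.153) or with rescaling on all spiked controls (0.572), and over its 15 alternatives the value ranged from 0.00331 to 0.572. Its 72 h difference was -0.08 once values below 3.66 were raised to 3.66. The other 4 TFPI probe sets stayed between 1.79 and 3.37.

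F13A1, the catalytic subunit of the fibrin cross-linking factor XIII, was listed at 2.72, 3.21, 3.0, 2.82, 3.0 and 2.76, all below the filter. PLAT, the tissue plasminogen activator, was lower still, with 2.10, 2.19, 2.01, 2.27, 2.36 and 2.03. Neither gene has a comparison here, and at this signal a small change was not detectable.

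Urokinase, the plasminogen activator that NB4 cells did express above background, was moderately higher on every ATRA array. PLAU probe set 205479_s_at gave 6.44, 6.88, 7.49, 7.15, 6.95 and 7.35 at 0, 4, 12, 24, 48 and 72 h. Probe set 211668_s_at gave 5.71, 6.19, 6.92, 6.30, 6.20 and 6.76 at these times. Both had their highest value at 12 h and a second high at 72 h, with the untreated array lowest. At 12 h PLAU was 2.07- and 2.31-fold higher in the 2 probe sets, and at 72 h 1.88- and 2.07-fold higher. The slopes were 0.13 ± 0.07 and 0.13 ± 0.08 per step and did not pass the test (limma adjusted p = 0.258 and 0.298). With rescaling on the controls other than bioC the differences of 205479_s_at were 0.04, 0.97, 0.24, 0.16 and 0.35 at 4, 12, 24, 48 and 72 h, in place of 0.45, 1.05, 0.72, 0.51 and 0.91. Those of 211668_s_at were then 0.07, 1.13, 0.11, 0.13 and 0.48, in place of 0.48, 1.21, 0.58, 0.49 and 1.05.

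The urokinase receptor went in both directions over the time course. PLAUR probe set 211924_s_at gave 7.0, 5.72, 5.85, 6.41, 6.96 and 9.23 at 0, 4, 12, 24, 48 and 72 h. Probe set 210845_s_at gave 7.24, 5.99, 5.92, 6.86, 7.04 and 9.0. In both, the 4 and 12 h arrays were the lowest, the 48 h array was close to untreated, and the 72 h array stood above all the others. PLAUR was 2.43- and 2.38-fold lower at 4 h and 2.22- and 2.49-fold lower at 12 h, and it was 4.67- and 3.41-fold higher at 72 h than in untreated cells.

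The high PLAUR signal at 72 h appeared after 48 h, with the 72 h array 4.82- and 3.89-fold above the 48 h array. Such a step of 2-fold or more upward was seen in 2 of the 13 kept probe sets, both of PLAUR, and in 4.48% of all tested probe sets, while 0 of the 13 and 1.98% of all had one downward. The third PLAUR probe set, 214866_at, did not show this pattern, with 4.96, 5.23, 4.52, 4.52, 4.73 and 5.08, near the 4.92 level throughout. With rescaling on all spiked controls the 4 h differences of the first 2 probe sets were -0.57 and -0.54, so the early dip was then less than 2-fold, and their 24 h differences turned positive, to 0.23 and 0.45. The 12 h dip, on the array that shares the untreated bioC level, was -1.30 and -1.47 under that rescaling. The 72 h difference remained between 1.20 and 2.89 under both rescalings.

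Over all 6 arrays the PLAUR slopes were 0.44 ± 0.19 and 0.37 ± 0.17 per step and did not pass (limma adjusted p = 0.154 and 0.183). Without the untreated array they were 0.81 ± 0.16 and 0.72 ± 0.14 (limma adjusted p = 0.0299 and 0.0290), and without the 72 h array 0.06 and 0.05 (0.901 and 0.924). Over the alternatives the adjusted p ranged from 0.00128 to 0.901 for 211924_s_at and from 0.00721 to 0.924 for 210845_s_at. PLAUR is a gene of both neutrophils and monocytes. Of 8 listed monocyte and macrophage markers 7 had probe sets, and CD163 alone passed the filter. CD163 gave 4.00 and 4.89 in its 2 kept probe sets at 72 h, against 2.50 and 3.35 in untreated cells. The summed linear signal of the list was 138 at 72 h and 97.2 in untreated cells. CD14, MRC1, MSR1, VCAN, C1QA and C1QB stayed below the filter on all arrays, and the part of these markers in the PLAUR values was not tested.

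Annexin A2, the surface receptor that brings plasminogen and its activator together, was lower on every ATRA array in its 3 kept probe sets. Probe set 201590_x_at gave 7.13, 6.20, 6.06, 5.38, 4.86 and 5.85 at 0, 4, 12, 24, 48 and 72 h. Probe set 213503_x_at gave 6.81, 6.17, 5.82, 5.42, 4.84 and 5.48, and 210427_x_at gave 6.82, 6.21, 5.97, 5.22, 5.02 and 5.34. Each value was below the one before it up to 48 h, and the 72 h array was higher than the 48 h array in all 3. ANXA2 was 1.53- to 1.90-fold lower at 4 h, 1.81- to 2.10-fold at 12 h, 2.63- to 3.37-fold at 24 h, 3.48- to 4.83-fold at 48 h and 2.43- to 2.79-fold at 72 h. At 48 h 201590_x_at and 213503_x_at, at 4.86 and 4.84, lay below the 4.92 level of distant-tissue genes, so the folds there are poorly resolved. At 72 h the log2 differences of the 3 probe sets spanned 0.20, a spread that measures agreement of probe sets on the same RNA and not of cultures.

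ANXA2 fell over time order in 2 of these 3 probe sets, by 0.33 ± 0.07 per step in 210427_x_at and 0.32 ± 0.07 in 213503_x_at (limma adjusted p = 0.0170 and 0.0274). The third, 201590_x_at, had a slope of -0.32 ± 0.10 (limma adjusted p = 0.0692), and without the 72 h array all 3 passed (0.0111, 0.00767 and 0.00767). The call of 213503_x_at was lost without the untreated (0.158), 4 h (0.0537), 12 h (0.0501) or 48 h array (0.0610), and that of 210427_x_at without the untreated array (0.0968). With the bioC level as a covariate the adjusted p was 0.0609 and 0.0964, and with rescaling on all spiked controls 0.517 and 0.544. Under that rescaling, which adds 0.71 to every probe set at 4 h, the 4 h differences of 201590_x_at, 210427_x_at and 213503_x_at were -0.21, 0.10 and 0.07, and those at 48 h were -1.27, -0.80 and -0.97. As deposited, 3.07% to 7.91% of all tested probe sets were as low or lower than these 3 at 4 h. The x_at suffix marks probe sets whose probes match other transcripts too, and ANXA2 has processed pseudogenes, so the 3 may share signal. The fourth probe set, 1568126_at, stayed between 2.09 and 2.36.

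S100A10, the partner that carries the plasminogen-binding tail of the annexin A2 complex, had 1 kept probe set, 200872_at, with 8.71, 8.70, 8.27, 8.20, 7.58 and 7.38 over the 6 times. Unlike ANXA2, it was at the untreated level at 4 h, and its lowest value was at 72 h. A second probe set, 238909_at, stayed below the filter, between 2.41 and 3.08. S100A10 fell in the first by 0.29 ± 0.05 per step (limma adjusted p = 0.00986) and was 2.50-fold lower at 72 h. Without the 72 h array the adjusted p was 0.0615, with rescaling on all spiked controls 0.602, and over 5 alternatives it ranged from 0.00193 to 0.602.

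**Figure D2:**
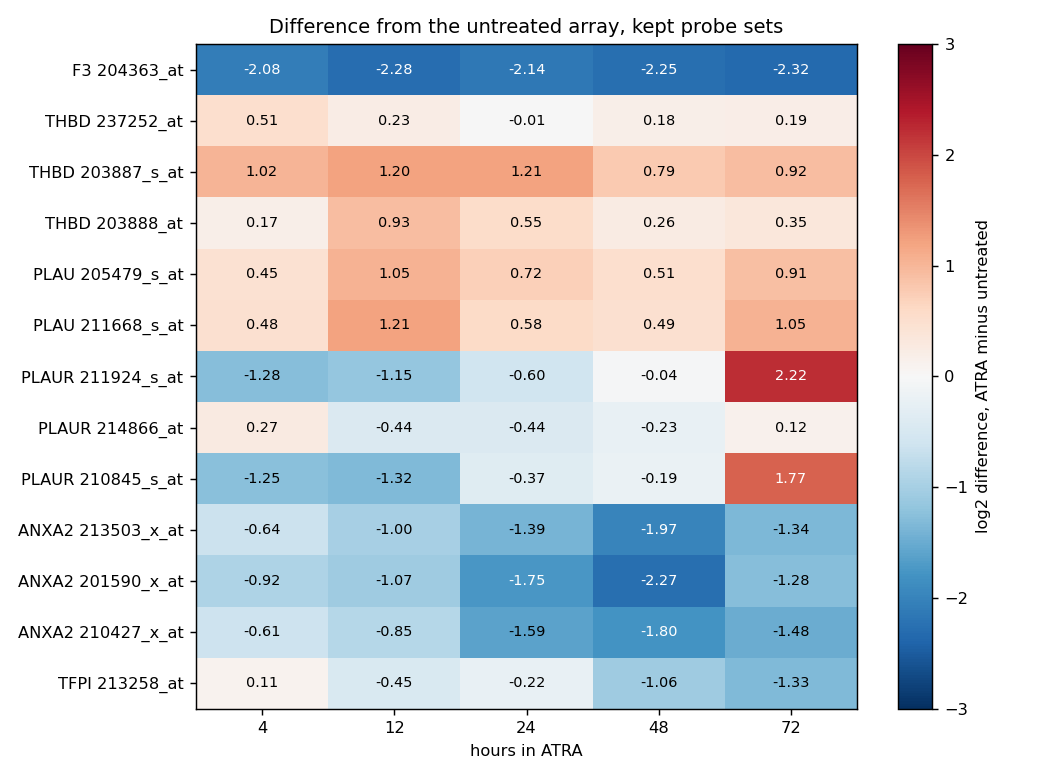
Log2 difference from the untreated array (colour and printed value, ATRA minus untreated) for the 13 kept probe sets (rows) at 4 to 72 h (columns). Blue is lower and red higher in ATRA. F3 is at -2.08 to -2.32 at every time, the ANXA2 rows reach -1.80 to -2.27 at 48 h, and 2 PLAUR rows are at -1.28 and -1.25 at 4 h and at 2.22 and 1.77 at 72 h.

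Of the 13 kept probe sets, 10 ranged over 2-fold or more across the arrays, as did 31.3% of all tested probe sets. Among them, 1 was 2-fold or more higher and 3 were lower at 4 h, where 1.82% and 2.52% of all tested probe sets were. At 12 h the counts were 3 higher and 4 lower (2.01% and 1.88% of all), at 24 h 1 and 4 (3.02% and 2.54%), at 48 h 0 and 5 (5.37% and 4.65%) and at 72 h 3 and 5 (10.6% and 12.0%). Over time order 0 rose and 3 fell by limma, where 7.04% and 8.92% of all probe sets were called, and 6 of the 13 were at an unadjusted p under 0.05, as were 31.6% of all. The THBD and TFPI probe sets enter these counts although each passed the filter through its high arrays. Their part in the counts is therefore no support for a change. THBD 203887_s_at was the only one higher at 4 and 24 h and 1 of the 3 at 12 h. TFPI 213258_at was among those lower at 48 and 72 h and was 1 of the 3 that fell. The 9 kept probe sets that reached 4.92, a selection made after seeing the data, were all of F3, PLAU, PLAUR and ANXA2. Higher at 4, 12, 24, 48 and 72 h were 0, 2, 0, 0 and 3 of them. Lower at these times were 3, 4, 4, 4 and 4, and 2 fell over time order. No share was counted over all probe sets that reached this level. The median difference of the 13 was 0.11, -0.45, -0.37, -0.19 and 0.19 at 4, 12, 24, 48 and 72 h, and that of all tested probe sets lay between -0.06 and 0.01. Several of these probe sets read 1 gene, so the counts are not counts of independent genes.

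**Figure D3:**
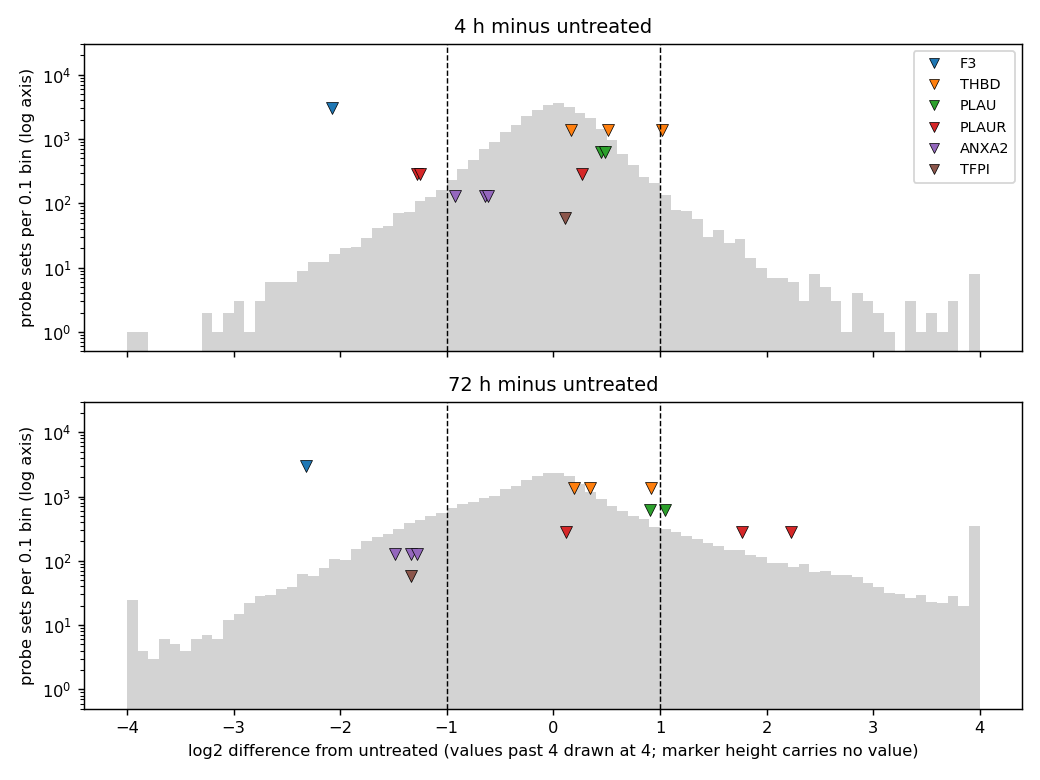
Distribution of log2 differences from untreated over the 30733 tested probe sets (grey bars, 0.1-wide bins, log count axis) at 4 h and 72 h, with the 13 kept members as triangles coloured by gene. Dashed lines mark 2-fold. At 4 h F3 lies at -2.08 with 0.221% of probe sets as low or lower, while at 72 h the distribution is wider.

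Other genes of the same pathways were read from a list of 40, of which 23 had a kept probe set, 35 probe sets in all. At 72 h 11 of these 35 probe sets were 2-fold or more higher and 3 lower, where 10.6% and 12.0% of all tested probe sets were, with a median difference of 0.01 in the list and -0.06 over all. Over time order 6 rose and 1, that of S100A10, fell by limma, where 7.04% and 8.92% of all did. The 11 higher probe sets read 6 genes and the 6 rising ones 4. Those of F5, PROS1, NRP1 and THBS1 other than 201108_s_at had untreated values below the filter. They were kept only through ATRA arrays, so their part in these counts is no support for a change. THBS1, thrombospondin 1, an adhesive glycoprotein of platelets and macrophages that binds plasmin and other proteases, differed most. Its probe set 201108_s_at gave 3.87, 4.49, 3.98, 3.89, 5.38 and 7.35 over the 6 times, a log2 difference of 3.48 at 72 h from an untreated value under the 4.92 level. Probe sets 201110_s_at and 201109_s_at gave 8.04 and 8.39 at 72 h, against 2.40 and 3.17 in untreated cells, which is below the filter. They rose by 1.02 ± 0.18 and 0.90 ± 0.19 per step (limma adjusted p = 0.0111 and 0.0221), and neither passed without the 72 h array (0.0865 and 0.149). All 5 kept THBS1 probe sets were highest at 72 h, though 201107_s_at and 235086_at reached only 4.28 and 3.89.

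ANXA5, an annexin that covers phosphatidylserine and so shields the surface on which clotting factors assemble, gave 7.65, 7.31, 7.42, 7.91, 8.44 and 9.41. ANXA5 rose by 0.36 ± 0.09 per step (limma adjusted p = 0.0290, 0.229 without the 72 h array and 0.0696 with bioC as a covariate) and was 3.40-fold higher at 72 h, while ANXA2 was lower there. SERPINE2, protease nexin 1, an inhibitor of thrombin and urokinase, gave 7.28, 7.21, 7.20, 7.30, 6.63 and 5.72. Its first 4 values were level, and it was 2.95-fold lower at 72 h without a called slope (limma adjusted p = 0.0593). F12, the contact factor XII, was 2.22-fold lower at 72 h (4.83, just under the 4.92 level, against 5.98 untreated; limma adjusted p = 0.216). F5, the cofactor of factor X, rose in its 2 kept probe sets, 204714_s_at and 204713_s_at, by 0.38 ± 0.08 and 0.23 ± 0.05 per step (limma adjusted p = 0.0195 and 0.0212), but its highest value was 4.81, under the 4.92 level, and neither slope passed without the 72 h array (0.107 and 0.190). The third F5 probe set, 231029_at, stayed between 2.17 and 2.58.

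PROS1, the cofactor of activated protein C, also rose, by 0.21 ± 0.05 per step (limma adjusted p = 0.0383), though its 72 h value of 4.04 alone reached the filter, and without that array the adjusted p was 0.262. F8, factor VIII, was 5.22 at 72 h and 4.00 in untreated cells without a called slope (limma adjusted p = 0.126). NRP1, a coreceptor for growth factors, was at 4.30 at 72 h and between 2.0 and 2.53 on the other arrays in probe set 212298_at (limma adjusted p = 0.0598). Another kept NRP1 probe set, 210510_s_at, was above the filter on every array. It gave 4.07 in untreated cells and 5.00 at 72 h, a difference of 0.93 (limma adjusted p = 0.122). The plasminogen receptors ENO1 and PLGRKT did not differ 2-fold at 72 h in any probe set, with differences of -0.58 in 201231_s_at and 0.76 in 218992_at. SERPINB6 and F2RL1, also on the list, had no probe set of 1 gene and were not analysed here.

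**Figure D4:**
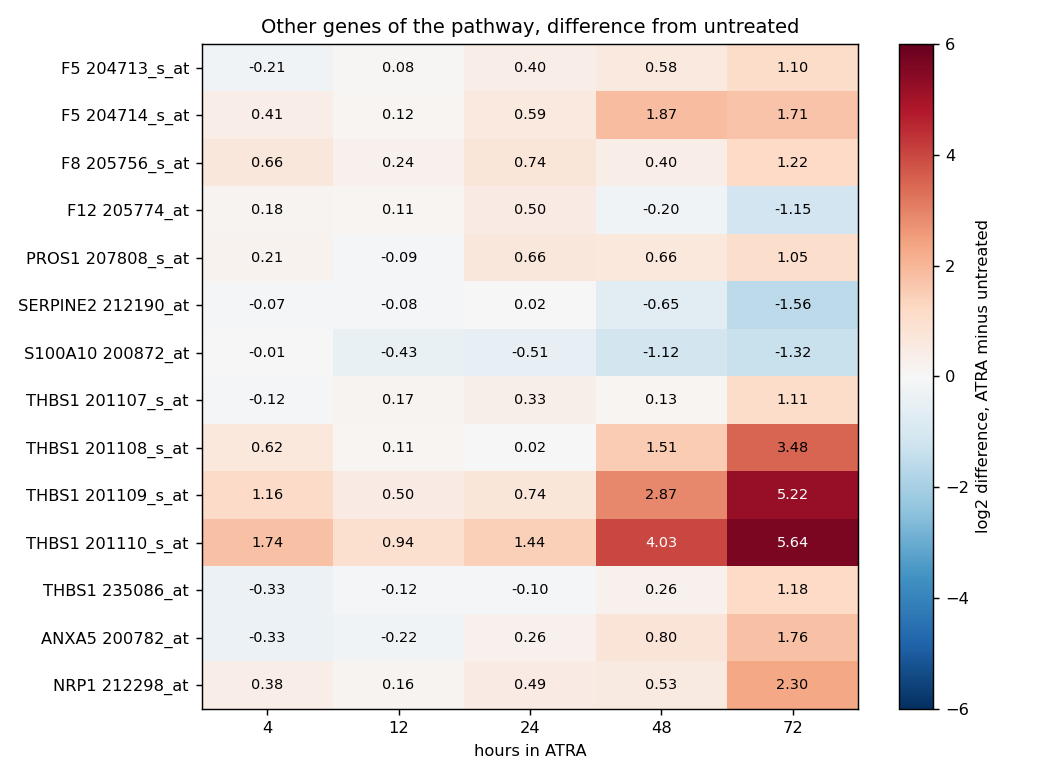
Log2 difference from the untreated array (colour and printed value, ATRA minus untreated) at 4 to 72 h (columns) for 14 probe sets of other coagulation and fibrinolysis genes (rows), named by a rule on the 72 h difference and the trend test. The THBS1 rows reach 5.64 at 72 h, S100A10 reaches -1.32 and SERPINE2 -1.56. The rows of F5, PROS1, NRP1 and all THBS1 probe sets but 201108_s_at have an untreated value below the filter.

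The genes with the most similar time courses were found from the root mean square difference of centred log2 values over the 6 arrays, among kept probe sets of 1 gene. For F3 they were SLC20A1 (0.16), LRRC8C (0.17) and KCNH2 (0.18), each with 1 high untreated value and 5 lower ones. LRRC8C, a subunit of volume-regulated anion channels, gave 7.52, 5.27, 5.37, 5.54, 4.93 and 5.16. For PLAUR (210845_s_at) they were ATP2B1, a calcium pump of the plasma membrane (0.21), DSE (0.24) and the transcription factor KLF6 (0.25), which gave 4.10, 3.18, 2.91, 3.35, 3.60 and 5.92. For ANXA2 (201590_x_at) they were SERINC5 (0.22), PSD3 (0.24) and the metalloprotease ADAM9 (0.25), all lowest at 48 h. For PLAU they were RASSF4 (0.08), BCKDHA (0.09) and MIDEAS (0.12), and for the low TFPI probe set RPUSD3 (0.09), THAP4 (0.10) and CHCHD6 (0.10). These are the closest of many profiles of 6 points and are given as a description.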

How the data were processed

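Expression in 6 NB4 samples was measured on 1 array each. The authors deposited log2 signals per probe set, summarised with RMA per the submitters' processing notes. RMA version, software and annotation build were not given in the sources used here. Probe sets were named from the platform annotation, which gave 1 gene to 41097, several to 1801 and none to 11777, with symbols updated through Entrez identifiers to the RefSeq table of GRCh38.p14. The 62 control probe sets were left out, and the 30733 probe sets with a highest value of at least 3.66 were tested.

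For each ATRA time the untreated log2 value was subtracted, and differences of 2-fold or more were counted. With limma 3.58.1 (R 4.3.3) a line was fitted through the arrays numbered 0 to 5 in time, with variances moderated along the mean signal. Slopes were called where p, adjusted by Benjamini-Hochberg over all tested probe sets, was under 0.05. The fit was tested on 30733 simulated probe sets, flat but for 100 given a slope of 0.3 per step and 100 given 0.6. It called 34 of the first 100 and 81 of the second, with 4 false calls among the rest. The fit of the real data called 2163 rising and 2740 falling. Adjustment over so few simulated slopes is stricter, so these shares do not give the power of the real fit. A slope near 0.3 without a call does not show that a trend is absent. P-values of the fit test whether the slope is 0, against the scatter of single arrays around the line. Departure from a line adds to that scatter. The members and lists were chosen with earlier results of these data known. Named genes were the members, list genes that differed 2-fold at 72 h or had a called slope, S100A10, and the 3 nearest profiles of members ranging over 1 or more. ENO1 and PLGRKT were named in addition, after their values were seen. Other settings tried were cyclic loess, bioC as a covariate, and other filters, baselines, thresholds and time scales. Fits with 1 probe set per gene and without each array were also run. Values were also shifted on the median of 18 spiked control probe sets, and on the mean of those other than bioC. A probe set annotated to SNU13 and ANXA2 together was not used.

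Marker lists were read for other cell types. Of the 7 promyelocyte and neutrophil genes, 6 had probe sets and all 6 passed the filter. In the megakaryocyte and platelet list the highest value was 5.36, in the fibroblast and epithelial list 5.86. In the hepatocyte list TTR and SERPINA1 alone passed, and SERPINA1, which myeloid cells also make, was higher by 4.85 and 4.93 at 72 h in 2 probe sets.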

Additional observations from a re-analysis of the deposited data

How the results depend on the processing

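No paired analysis was possible because each time has 1 array and no replicate numbers. With 13 probe sets, counts moved easily, and F3 remained 2-fold or more lower at all 5 times under cyclic loess and both control shifts. In place of 0 rising members, 2 rose with the shift on all controls and 2 over hours. Leaving out 1 array gave 0 to 2 rising and 1 to 3 falling, in place of 0 and 3. Falling members numbered 0 with the shift on all controls, 5 with the shift without bioC, 1 with the bioC covariate, 0 within the 4, 24, 48 and 72 h arrays, 1 over hours and 1 with 1 probe set per gene. Over all probe sets, limma called 2299 rising and 83 falling with the first shift and 1412 and 6436 with the second, in place of 2163 and 2740. The counts over all were 588 and 218 within the 4, 24, 48 and 72 h arrays, 1286 and 2139 with the covariate, 688 and 688 over log2(hours + 1), 3116 and 3484 over hours, and 665 and 379 without the 72 h array. They came to 1512 and 770 without the untreated array and to 1489 and 1748 without the 48 h array. The cause was not tested.

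The counts below are of member probe sets. No share of all probe sets was counted under these settings, so they show only how the counts move. The shift on all controls adds 0.66 to 1.0 to every probe set at 4, 24, 48 and 72 h. With it, member probe sets 2-fold or more higher at these times numbered 4, 4, 5 and 6. With the shift without bioC 0 were higher at 4 and 24 h. Members lower at 4, 24, 48 and 72 h numbered 1, 1, 2 and 1 with the first shift, and 6 were lower at 4 h with the second. Cyclic loess gave 0 higher at 4 h and 2 lower at 12 h. Averaging the 0 and 4 h arrays into 1 baseline gave 0 higher and 1 lower at 12 h and 0 higher at 24 h. The 4 h array as baseline gave 0 higher and 0 lower at 24 h, 2 higher at 48 h and 1 lower at 72 h. A 1.5-fold threshold gave 6 lower at 4 h and 2, 1 and 5 higher at 24, 48 and 72 h. A 3-fold threshold gave 0 higher at 4, 12 and 24 h and 1 lower at 4, 12 and 72 h. Setting low values to the filter, a filter at percentile 75, or keeping members that reach 4.92 (chosen after seeing the data) each gave 0 higher at 4 and 24 h. Without x_at and s_at probe sets 0 were higher at 4, 12, 24 and 72 h, and 1, 1, 1, 2 and 2 lower at 4, 12, 24, 48 and 72 h. Members wholly below the level numbered 12 at percentile 75 and 11 at 4.92, in place of 7.

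Slopes near 0 changed sign: THBD 237252_at to 0.14 and PLAUR 214866_at to 0.12 with the shift on all controls, THBD 203888_at to -0.041 with the shift without bioC, and THBD 203887_s_at to -0.047 within the 4, 24, 48 and 72 h arrays. PLAUR 214866_at was 0.00058 over hours and THBD 237252_at 0.0022 over log2(hours + 1). Leaving out 1 array gave slopes of -0.068 to 0.031 for THBD 237252_at, -0.063 to 0.18 for 203887_s_at, -0.031 to 0.090 for 203888_at and -0.12 to 0.018 for PLAUR 214866_at. None of these slopes was called.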
